A study of Mus musculus with 4 samples.

Results

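The genes described here encode the non-collagen scaffold that fibroblasts secrete: matrix glycoproteins, proteoglycans and the synthases that make hyaluronan. They were 44 named mouse genes, chosen by symbol among 37074 genes on the array, and every non-control probe carrying 1 of those symbols was used. The array held 97 such probes. Of these, 69 probes of 37 genes were bright enough to be tested, and the other 7 genes are accounted for below. The cells were NIH3T3, a mouse embryonic fibroblast line long established in culture, which the labels also call dermal fibroblasts. One group received a control siRNA (siControl, 2 arrays) and the other an siRNA against Timp1 (siTIMP1, 2 arrays). In both groups the siRNA was delivered with sCA, an apatite nanoparticle, and the medium held 2% serum. Untransfected cells were not analysed here, so any effect of the carrier is common to both groups.

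The matrix glycoproteins and proteoglycans form several systems. Laminins, nidogens and perlecan build basement membranes. Fibrillins and their partners form the microfibrils that carry elastin, while small leucine-rich proteoglycans bind collagen fibrils and set their spacing. Matricellular proteins such as tenascins and thrombospondins regulate adhesion more than they bear load, and hyaluronan with versican makes a hydrated coat around the cell. The targeted gene, Timp1, encodes a secreted inhibitor of the metalloproteinases that cleave many of these proteins. The comparison asked which of these transcripts differed when Timp1 was silenced.

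Signals below are processed spot intensities of 1 array, in the order siControl replicates 1 and 2, then siTIMP1 replicates 1 and 2. Fold changes are siTIMP1 over siControl on the log2 scale after each array was set to its own 75th percentile, and SE is their standard error in limma. A gene is represented by its brightest tested probe. Whether the replicates are separate cultures is not stated in the labels, and their spread, on which every p-value here rests, may be technical. A single slide and scan held all 4 arrays, siControl in positions 1 and 2 and siTIMP1 in positions 3 and 4. Slide position and group cannot be told apart. The share of spots well above background was 50.4% to 52.1% on 3 arrays and 45.9% on siTIMP1 replicate 2. The latter also had the highest signal floor, 2.61 against 1.41 to 1.58 on the others. Timp1 itself stood at 2.68% of its siControl level (log2 fold change -5.22, SE 0.158, limma adjusted p = 0.0105).

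The fibroblast label was set against marker genes. Of 10 fibroblast markers, 9 were well above background on all 4 arrays and Fap on none. The summed signal of that list, relative to the 75th percentile, was 1781 to 1901 in siControl and 1910 to 1912 in siTIMP1. Within it, Pdgfra, a receptor gene, read 1054 and 898 in siControl and 587 and 506 in siTIMP1 (log2 fold change -0.88, limma adjusted p = 0.0618). Col5a1, a fibrillar collagen gene, gave 0.49 (adjusted p = 0.172). None of 6 endothelial markers could be tested, and 5 of them were at background on every array. Of 7 epithelial markers, Krt8 and Krt14 were tested, as were 2 of 5 adipocyte and 3 of 6 muscle markers. Muscle markers summed to 117.8 and 99.35 in siControl and 111.9 and 117.9 in siTIMP1. The brightest of them, Acta2, read 21870 and 18050 in siControl and 21220 and 22330 in siTIMP1. Leukocyte and macrophage markers gave a summed signal of 19.0 and 19.2 in siControl and 16.6 and 15.7 in siTIMP1, with Adgre1 at background on all arrays. In that list 5 of 7 markers were well above background on all arrays. Itgam, Csf1r and Cd3e were lower in siTIMP1 at an unadjusted limma p under 0.05 with groups apart (log2 fold changes -0.32, -0.29 and -0.54). Of all genes tested, 7.99% were lower by that rule. Cd68 (0.09) and Ptprc (0.01) had overlapping groups. Neural and glial markers summed to 1.45 and 1.60 in siControl and 1.40 and 1.21 in siTIMP1. Cartilage and bone markers summed to 13.1 and 13.5 in siControl and 13.2 and 12.7 in siTIMP1. Whether any of these shifts takes part in the results below was not tested.

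No matrix gene passed an adjusted p of 0.05. The fit called 0 of 37 tested members, where it called 0.788% of all 17647 genes tested, 0.0850% as higher and 0.703% as lower in siTIMP1. At an unadjusted p under 0.05 with no overlap between groups, limma gave 10 of 37 members (27.0%), against a background of 19.8% of all genes. Mfap2, Mfap5, Fbln5 and Lama2 were the 4 on the higher side (10.8% of members, background 11.9%). Mfap2 entered the test only through siTIMP1, since neither siControl array was well above background, so its side follows from the filter. With probes required to be well above background on all 4 arrays, the count was 9 and not 10. Thbs2, Lum, Nid1, Tnxb, Lamb1 and Tnc were the 6 on the lower side (16.2% of members, background 7.99%). The groups did not overlap in 15 members, or 40.5%, while they did not overlap in 54.0% of all genes. At the level of single probes, 1 of 69 was called, a probe in the 5′ portion of Tnc, against a background of 0.688% of 26015 probes. The median log2 fold change over the 37 members was 0.04, beside 0.02 over all genes tested. With 2 arrays a group and total RNA from whole cultures, fewer expressing cells and less RNA per cell cannot be told apart.

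**Figure D1:**
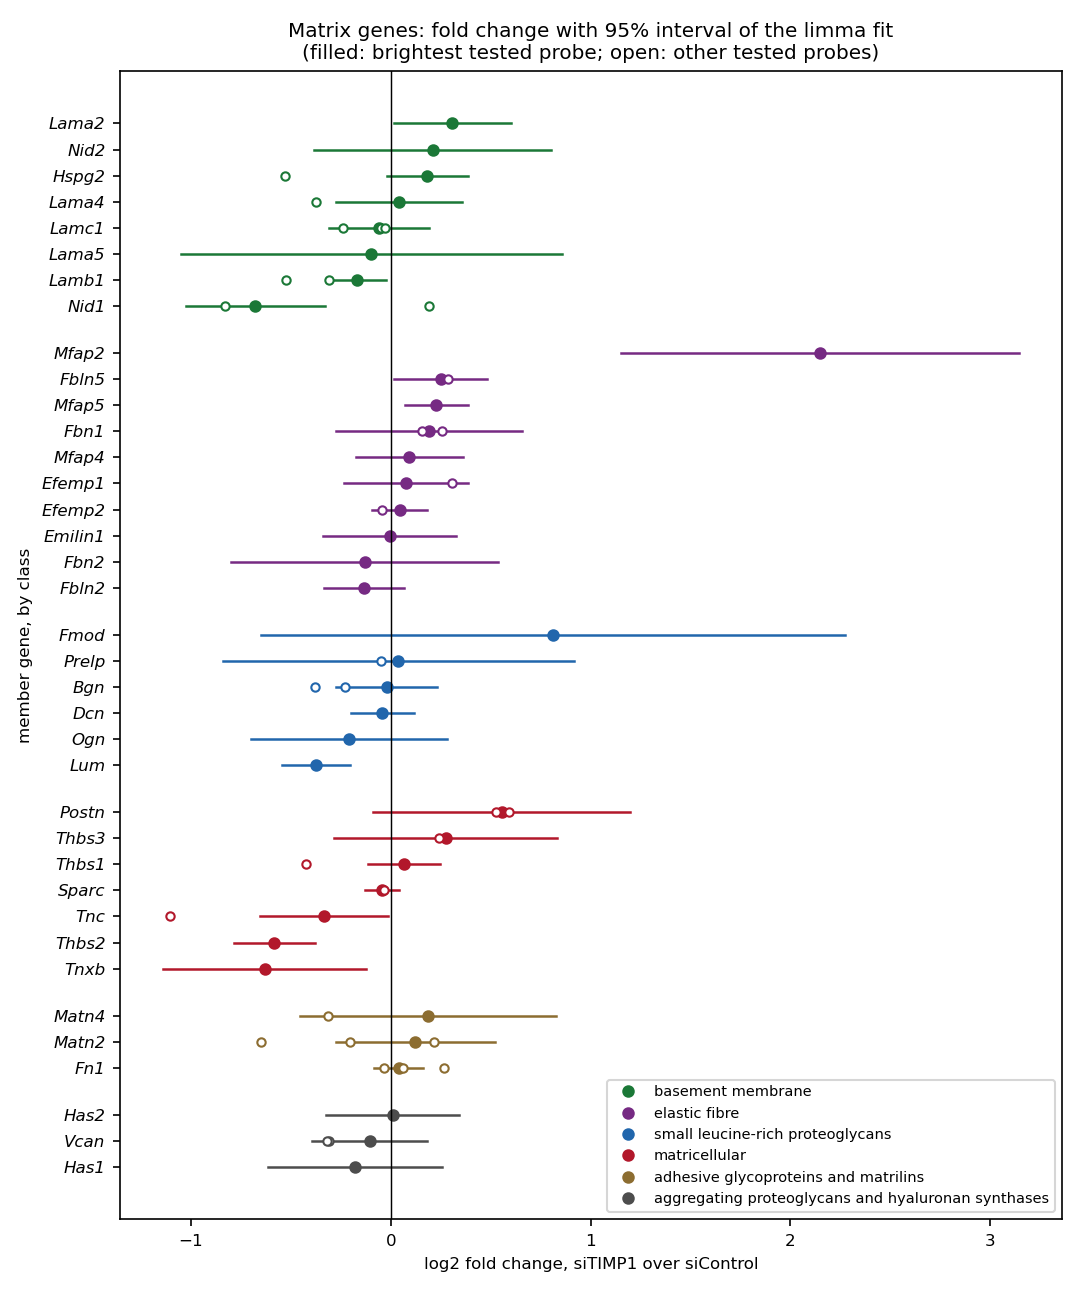
Log2 fold change of siTIMP1 over siControl (horizontal axis) for the 37 tested members, grouped and coloured by class; filled points are the brightest tested probe with the 95% interval of the limma fit, open points the other tested probes of the same gene. Matricellular genes spread from -0.63 for Tnxb to 0.55 for Postn, and the Mfap2 value of 2.15 is set against a siControl signal that was not well above background.

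The matricellular genes had groups apart in 5 of 7 tested members, where 54.0% of all genes did. On the lower side stood Thbs2, Tnxb and Tnc, on the higher side Postn, and Sparc differed by 0.04. Thbs2 encodes thrombospondin 2, a secreted inhibitor of angiogenesis that also binds metalloproteinases and affects collagen fibril shape. Its probe read 1270, 1365, 910.3 and 903.2. Both siTIMP1 arrays were low and close to each other, below both siControl arrays. The log2 fold change was -0.58 (SE 0.0792, 95% interval -0.79 to -0.38, limma adjusted p = 0.0646), so siTIMP1 stood at 66.8% of siControl. With all arrays kept, this adjusted p was below the threshold under quantile normalization (0.0487), the percentile over detected spots (0.0480), no filter (0.0182) and robust eBayes (0.0464). It was above the threshold in the other alternatives that kept all arrays, and highest without a mean-variance trend (0.188). The fold change was -0.65 and -0.51 without siControl replicates 1 and 2, and -0.59 and -0.58 without siTIMP1 replicates 1 and 2. Whether Thbs2 was called then depended on which array was left out. The Thbs2 probe lies at chr17:14804526-14805789 on the minus strand (mm9) and crosses at least 1 intron.

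Tnc encodes tenascin-C, an anti-adhesive glycoprotein induced in wounds and tumour stroma, and it was read by 2 probes that differed in the size of their fold change. The central 30 bases of each are shown because the called result came from only the upstream probe. The upstream probe lies at chr4:63674248-63675011 and the downstream probe at chr4:63620819-63620864, both for the minus strand. No motif was searched for, so no base is in capitals.
Tnc upstream probe: tttcgaaacatgggagatcattttccgaaa
Tnc downstream probe: gatttttaccaaagcatcaacacaaccagt
The upstream probe read 248 and 235 in siControl and 122 and 109.6 in siTIMP1. The groups were well apart, with a log2 fold change of -1.10 (SE 0.107, limma adjusted p = 0.0327). The call was lost without siTIMP1 replicate 1 (adjusted p = 0.0625), without siTIMP1 replicate 2 (0.142) and in a limma fit with no mean-variance trend (0.134), while the fold change stayed between -1.18 and -0.80 in all 13 alternatives run on probes. The downstream probe, the brighter of the pair, read 303 and 343 in siControl and 283 and 246 in siTIMP1. Its groups did not overlap either, but its log2 fold change was -0.33 (SE 0.124, limma adjusted p = 0.257).

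Tnxb encodes tenascin-X, which binds collagen and elastic fibres and whose loss is known to cause lax skin. Its signals were 64.3 and 86.2 in siControl and 46.4 and 53.0 in siTIMP1. Both siTIMP1 values lay below both siControl values, although the siControl arrays were 0.46 apart on the log2 scale. The log2 fold change was -0.63 (SE 0.199, limma adjusted p = 0.211).

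Postn encodes periostin, a matricellular protein of collagen-rich tissue that fibroblasts make in response to TGF-beta. Its brightest probe read 5386 and 3091 in siControl and 6488 and 5890 in siTIMP1. The groups did not overlap, but siControl replicate 2 stood far below the other 3 arrays. The log2 fold change was 0.55 (SE 0.250, limma adjusted p = 0.319), and both other tested probes gave 0.53 and 0.59. It was 0.94 without siControl replicate 1 (adjusted p = 0.00759) and 0.17 without siControl replicate 2 (adjusted p = 0.316). Thbs3, thrombospondin 3, had the same array pattern, with 878.5 and 545 in siControl against 878 and 852 in siTIMP1. Its fold change was 0.60 without siControl replicate 1 (adjusted p = 0.0250) and -0.05 without siControl replicate 2.

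Sparc, which encodes a collagen-binding glycoprotein also called osteonectin, was steady over the 4 arrays at 108500, 104800, 105700 and 107900. Its log2 fold change of -0.04 had a 95% interval of -0.13 to 0.04. Thbs1 encodes thrombospondin 1, an activator of latent TGF-beta, and its brightest probe gave 0.07 (95% interval -0.11 to 0.25). A second Thbs1 probe, 1623 bases upstream, read 253 and 243 in siControl and 188 and 193 in siTIMP1. Its groups were apart, with a log2 fold change of -0.43 (SE 0.0893, limma adjusted p = 0.127). The median over the 7 tested matricellular genes was -0.04, and Comp, the cartilage oligomeric matrix protein gene, was not well above background on any array.

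**Figure D2:**
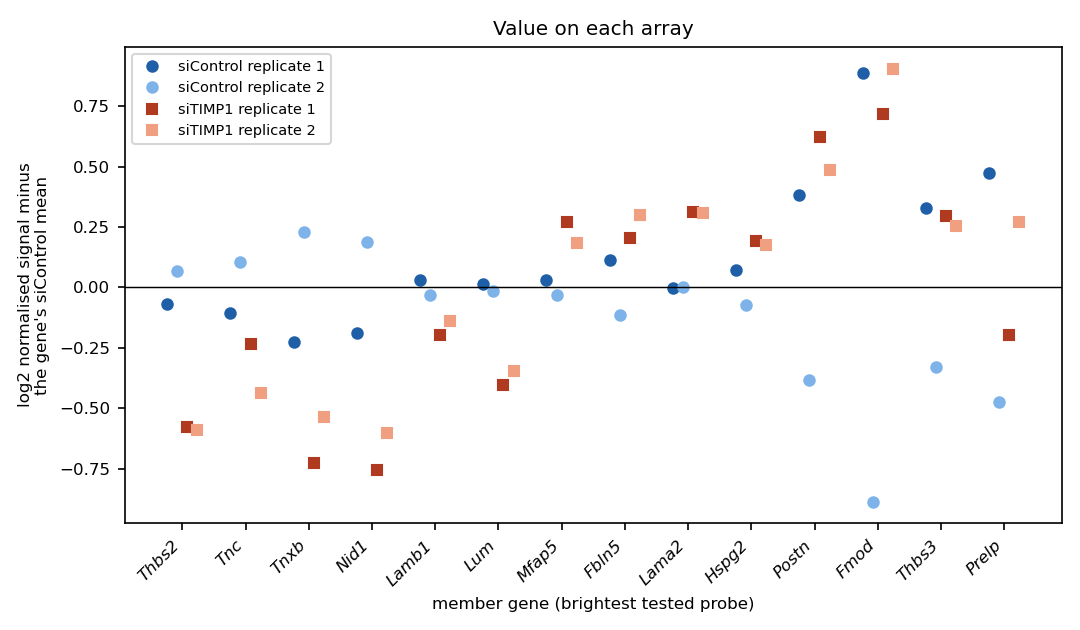
Normalised log2 signal of 14 members on each array, minus the mean of the 2 siControl arrays of that gene (vertical axis); circles are siControl and squares siTIMP1 replicates. The siTIMP1 squares lie below both circles for Thbs2, Tnc, Tnxb, Nid1, Lamb1 and Lum, whereas for Postn, Fmod and Thbs3 siControl replicate 2 alone lies low.

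Among basement membrane genes, Nid1 and Lamb1 lay on the lower side in siTIMP1, Lama2 on the higher side, and the median over the 8 tested was -0.01. Nid1 encodes nidogen 1, the rod that links the laminin network to type IV collagen and is readily cut by metalloproteinases. Its brightest probe read 10250 and 12980 in siControl and 7062 and 7847 in siTIMP1. The siTIMP1 arrays were both lower, at 62.5% of siControl. The log2 fold change was -0.68 (SE 0.135, limma adjusted p = 0.119), and -0.86 without siControl replicate 1 (adjusted p = 0.0101). It was -0.49 without siControl replicate 2 (adjusted p = 0.0543), and the adjusted p was 0.318 and 0.313 without siTIMP1 replicates 1 and 2.

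The 3 Nid1 probes differed in direction, and their central 30 bases are shown with the place of each on the plus strand. The 3′ probe lies at chr13:13604417-13604476 and the 5′ probe, which crosses at least 1 intron, at chr13:13530138-13555992. The third, at chr13:13593389-13593448, was designed on a cDNA clone and not on the reference mRNA.
Nid1 3′ mRNA probe: ctccagatgtatacaagtattggatgattc
Nid1 5′ mRNA probe: aactgagcttctatgatcgtacggacatca
Nid1 cDNA clone probe: tatagatcaggcaagtcttgaacatgttat
The 5′ mRNA probe read 78.9 and 116 in siControl and 49.98 and 61.7 in siTIMP1. Both mRNA probes therefore had siTIMP1 below siControl, the 5′ probe by a log2 fold change of -0.83 (SE 0.239, limma adjusted p = 0.188). The clone probe read 19.9 and 27.9 against 25.9 and 29.8, with overlapping groups and a log2 fold change of 0.19. Nid2, which encodes the related nidogen 2, was dim, between 18.9 and 27.5 on the 4 arrays, with overlapping groups and a fold change of 0.21.

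Lamb1 and Lamc1 encode the beta 1 and gamma 1 chains found in most laminins. Lamb1 read 6884 and 6434 in siControl and 5992 and 6227 in siTIMP1. The groups were narrowly apart, with a log2 fold change of -0.17 (SE 0.0564, limma adjusted p = 0.227). Both other tested Lamb1 probes were also lower with groups apart, at -0.31 and -0.53, the latter on the probe nearest the 5′ end. Lamc1 gave -0.06, with 4445 and 3768 against 3829 and 4287, so its groups overlapped. Of the alpha chains, which give each laminin its receptor binding, Lama2 read 68.4 and 67.2 in siControl and 86.8 and 86.4 in siTIMP1. Its replicates were nearly identical, with a log2 fold change of 0.31 (SE 0.115, limma adjusted p = 0.258), yet the other 4 Lama2 probes were not well above background. Lama4 gave 0.04 on its brightest probe and -0.37 on a probe 52190 bases upstream, and Lama5 gave -0.10 with a 95% interval of -1.05 to 0.86. Neither Lama1 probe was well above background on any array.

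Hspg2 encodes perlecan, the heparan sulfate proteoglycan of basement membranes, and its 2 probes had opposite signs although they lie 947 bases apart on the genome. The downstream probe, at chr4:137126392-137126451, and the upstream probe, at chr4:137125445-137125504, are both on the plus strand. Their central bases are given because the direction for this gene depended on which was read.
Hspg2 downstream probe: ataaccctgcccatctgggagcctgaggac
Hspg2 upstream probe: acaggctgtatcaagaatctggtgttgcac
The downstream probe read 1189 and 1054 in siControl and 1319 and 1304 in siTIMP1, both siTIMP1 arrays being higher. Its log2 fold change was 0.18 (SE 0.0790, limma adjusted p = 0.303). The upstream probe read 32.0 and 24.7 in siControl and 18.2 and 22.2 in siTIMP1, both siTIMP1 arrays being lower, and gave -0.53 (SE 0.235, adjusted p = 0.313). Neither was called, so no direction can be given for perlecan.

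Of 10 tested elastic fibre genes, 7 had a fold change above 0, with a median of 0.08, beside 9533 of all 17647 genes with a median of 0.02. Mfap5 and Fbln5 were on the higher side at an unadjusted p under 0.05 with groups apart, as was Mfap2, which was tested only through its siTIMP1 arrays. Mfap5 encodes a microfibril-associated glycoprotein that binds fibrillin, and it read 5075 and 4745 in siControl and 6117 and 5741 in siTIMP1. The siTIMP1 arrays were both higher, at 117% of siControl, with a log2 fold change of 0.23 (SE 0.0616, limma adjusted p = 0.177). Fbln5 encodes fibulin 5, which guides elastin onto microfibrils. Its brightest probe read 8631 and 7201 in siControl and 9368 and 10000 in siTIMP1. The groups were apart with a fold change of 0.25 (SE 0.0910, limma adjusted p = 0.249). It was 0.37 without siControl replicate 1 (adjusted p = 0.0477) and 0.14 without siControl replicate 2 (0.336), and the adjusted p was 0.422 and 0.570 without siTIMP1 replicates 1 and 2. A second Fbln5 probe that shares part of its target gave 0.29, also with groups apart.

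Mfap2 encodes another microfibril-associated glycoprotein and had the largest fitted fold change of the members, on very low signals. The probe at chr4:140570105-140570164 (plus strand) read 5.86 and 3.62 in siControl, not well above background, and 18.6 and 23.9 in siTIMP1, well above background on both arrays. Set against the lowest signal that counts as well above background in siControl, it was at least 2.74-fold higher in siTIMP1. This bound was computed in the main processing only. The probe passed the filter only through siTIMP1, so its side follows from the filter. The fitted log2 fold change of 2.15 (limma adjusted p = 0.106) is not a bound, and it was 0.34 with normexp background correction. A second Mfap2 probe, at chr4:140571828-140571887, was not well above background on any array, at 4.08, 4.71, 4.34 and 3.12. The pair is shown because only the first was well above background on any array.
Mfap2 first probe: ccctgaagagcagttccagtcccagcagca
Mfap2 second probe: atggaccacctctgttttatacaaaataat

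The other elastic fibre genes stayed between -0.13 and 0.19. Fbn1, fibrillin 1 and the main microfibril subunit, gave 0.19 on its brightest probe, with 1169 and 826 in siControl and 1057 and 1265 in siTIMP1. Its groups overlapped, as they did on both other Fbn1 probes, which gave 0.16 and 0.26. Fbln2, the gene for fibulin 2, gave -0.13 (95% interval -0.33 to 0.06), and Fbn2 gave -0.13 near background. Fbn2 was well above background on both siControl arrays but only 1 siTIMP1 array. It was tested only through siControl, so the filter favoured its lower side. Efemp2, fibulin 4 and needed for elastin cross-linking, read 14920 and 15210 against 15580 and 16490, a fold change of 0.04 (95% interval -0.09 to 0.18). Efemp1, Mfap4 and Emilin1 gave 0.07, 0.09 and -0.01. Eln, which encodes elastin, was well above background on 1 of 4 arrays for 1 of its 2 probes, a siTIMP1 array, and Fbln1 on 1 siControl array for 1 of its 3 probes, so neither was tested.

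Of the small leucine-rich proteoglycans, Lum was the member on the lower side, and the 6 tested had a median of -0.03. Lum encodes lumican, which regulates collagen fibril diameter. It read 1648 and 1578 in siControl and 1258 and 1310 in siTIMP1. Replicates agreed closely and the siTIMP1 arrays stood at 77.2% of siControl, with a log2 fold change of -0.37 (SE 0.0668, 95% interval -0.55 to -0.20, limma adjusted p = 0.103). Over 16 alternatives this value stayed between -0.42 and -0.32 and the adjusted p between 0.0613 and 0.307. Decorin and biglycan, the most studied collagen-binding members of the family, showed overlapping groups. Dcn read 20800 and 18460 against 19340 and 19930, a fold change of -0.04 (95% interval -0.20 to 0.12). Bgn read 2387 and 2033 against 2126 and 2361, a fold change of -0.02 (95% interval -0.27 to 0.23).

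Fmod encodes fibromodulin, a collagen-fibril organiser related to lumican. Its signals were 106 and 30.3 in siControl and 96.2 and 109.5 in siTIMP1. One siControl array was level with siTIMP1 and the other far below, so the groups overlapped and the fold change of 0.81 had a 95% interval of -0.65 to 2.27. Without siControl replicate 1 it was 1.70 (limma adjusted p = 0.0130), and without siControl replicate 2 it was -0.07 (0.841). Prelp, a proteoglycan of basement membrane and cartilage, read 232 and 118 against 149 and 206, with a fold change of 0.04. Ogn, the gene of osteoglycin, read 25.0 and 24.7 against 21.6 and 22.8, with a fold change of -0.21 (SE 0.191, limma adjusted p = 0.583).

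The adhesive glycoproteins and matrilins showed no member with groups apart on its brightest probe. Fn1 encodes fibronectin, the ligand through which integrins organise much of this matrix, and it read 54290, 49870, 54170 and 56130. Its log2 fold change of 0.04 had a 95% interval of -0.08 to 0.16, and the other 3 probes gave 0.06, -0.03 and 0.27. Matn2, the gene of the filament-forming matrilin 2, read 789 and 577 against 724 and 793, with overlapping groups and a fold change of 0.12. Its 4 probes ranged from -0.65 to 0.22. The lowest value came from a probe that read 114 on siControl replicate 2 and 40.2, 41.3 and 48.0 on the others. Matn4, a related matrilin gene, read 22.1 and 28.3 against 25.4 and 33.8, with overlapping groups and a fold change of 0.19. Its other probe gave -0.31, and Vtn, which encodes the mainly hepatic adhesion protein vitronectin, was at background on all 4 arrays.

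The hyaluronan coat was represented by 3 tested genes, with a median of -0.11. Has2, the main hyaluronan synthase of fibroblasts, read 1669 and 2106 in siControl and 1934 and 1959 in siTIMP1. The siTIMP1 arrays lay between the siControl arrays, and the fold change was 0.01 (95% interval -0.33 to 0.34). Has1, a further synthase, read 43.3 and 37.8 against 34.4 and 39.5, a fold change of -0.18 (SE 0.170, limma adjusted p = 0.591), and Has3 was at background on all arrays. Vcan encodes versican, the large proteoglycan that binds hyaluronan. Its brightest probe read 963 and 854 against 948 and 797, a fold change of -0.11 (SE 0.113, limma adjusted p = 0.636). Both other Vcan probes had groups apart, at -0.31 and -0.32, with adjusted p of 0.207 and 0.272. Acan, the gene for the cartilage proteoglycan aggrecan, was at background on all 4 arrays.

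Within many of these long genes the fold change was lower on the probe nearer the 5′ end. For 15 members with at least 2 tested mRNA probes over 200 bases apart, the upstream probe had the lower log2 fold change in 12, with a median difference of -0.19. Over all genes with such probes this held for 2260 of 4251 (53.2%), with a median of -0.02. Where the probes lay over 10000 bases apart it held for all 8 members (Fn1, Lama4, Lamb1, Lamc1, Matn4, Nid1, Tnc and Vcan), with a median of -0.29, and for 67.9% of 1413 genes, with a median of -0.13. The upstream probe was also the dimmer on all 15, as it was for 3667 of the 4251 genes. That of Prelp, 1 of the 12, was well above background on both siControl arrays but only 1 siTIMP1 array. It was tested only through siControl, so the filter favoured its lower value. Over all tested probes, the median fold change was -0.43 below a normalised log2 signal of -4, -0.08 from -4 to -2, -0.01 from -2 to 0, 0.04 from 0 to 2 and 0.08 from 2 to 4. The lowest log2 value well above background was -3.85 on siTIMP1 replicate 2 and -4.68 to -4.58 on the other arrays. A probe averaging below -4 could thus pass through siTIMP1 only if siTIMP1 replicate 2 read above that average. The filter therefore favoured negative fold changes among the dimmest probes. Among all genes with probes over 10000 bases apart, the upstream probe had the lower fold change in 70.7% where it was dimmer by over 2 on the log2 scale (median -0.15) and in 62.4% where it was not (median -0.08). With probes closer than that and the upstream probe dimmer by over 2, it held for 48.4% (median 0.0078). With each gene read by its most 5′ mRNA probe, the median was -0.31 for basement membrane and -0.43 for matricellular genes, and 1 member, Tnc, was called. The median over all genes was not computed for that choice of probe. These class medians are therefore not separated from a shift common to all genes.

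**Figure D3:**
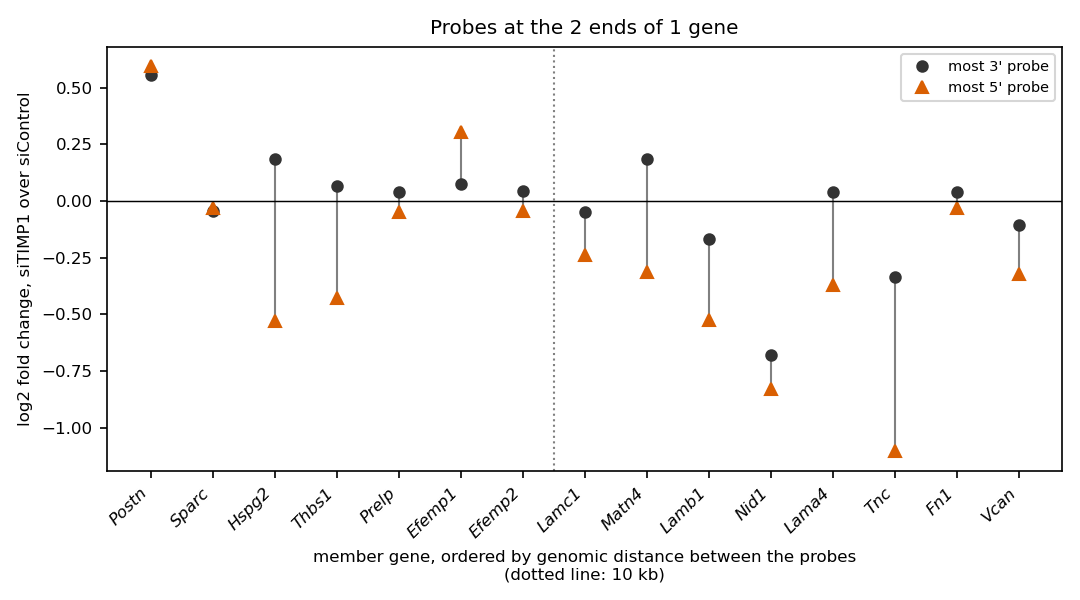
Log2 fold change (vertical axis) of the most 3′ probe (circle) and the most 5′ probe (triangle) of 15 members, ordered by the genomic distance between them, with a dotted line at 10 kb. To the right of the line all 8 triangles lie below their circles, from a difference of -0.77 for Tnc to -0.07 for Fn1.

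The gap between the siControl arrays exceeded the group difference in 22 of 37 members (59.5%), against 46.4% of all genes tested. The median of this gap was 0.19 for members and 0.14 for all genes on the log2 scale, and between siTIMP1 arrays 0.12 and 0.11. Replicate 2 read below replicate 1 in 26 of 37 members (70.3%), against 47.5% of all genes. Gaps over 0.5 occurred for Fmod (1.77), Prelp (0.94), Postn (0.77), Mfap2 (0.66) and Thbs3 (0.66). The collagen gene Col3a1 had the same order, at 11300 and 7098 in siControl and 12720 and 11710 in siTIMP1. Left without siControl replicate 1, the fit called 6 members, Fbln5, Fmod, Postn and Thbs3 as higher and Nid1 and Thbs2 as lower, and 6.15% of all genes. Left without siControl replicate 2 it called Thbs2 alone, and 2.41% of all genes.

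**Figure D4:**
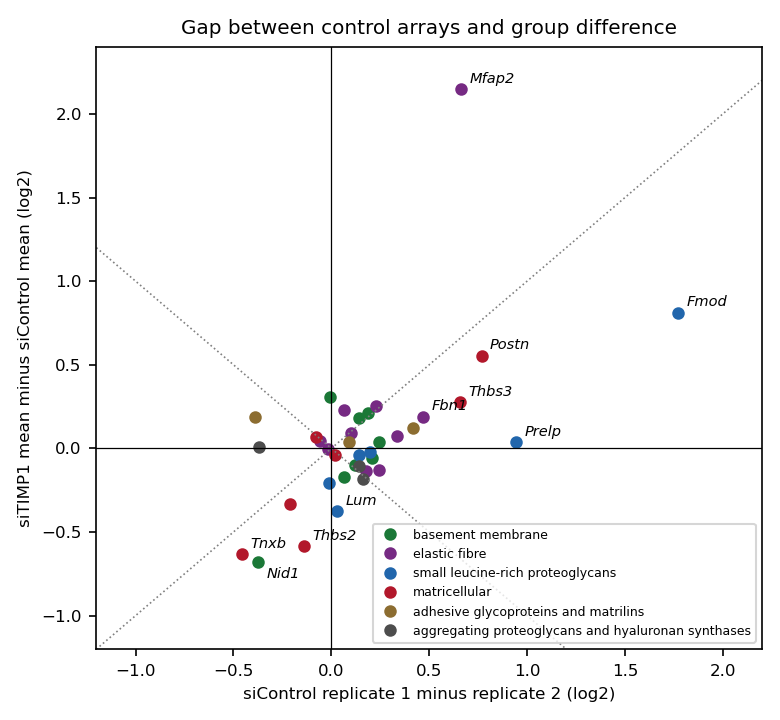
Difference between the group means (vertical axis, log2) against siControl replicate 1 minus replicate 2 (horizontal axis, log2) for the 37 tested members, coloured by class; on the dotted diagonals both are equal in size. Fmod, Prelp, Postn and Thbs3 lie to the right with a control gap larger than the group difference, while Thbs2 and Lum lie near the vertical axis with a group difference several times the gap.

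Other genes of the same systems were read from 7 further lists, 132 entries in all, with Cemip2 entered also under its older symbol Tmem2. Of these entries, 94 were tested and 0 called by limma. At an unadjusted p under 0.05 with groups apart, 18 were higher and 3 lower, against the same backgrounds of 11.9% and 7.99% of all genes. The median log2 fold change of the 94 was 0.03. Among 33 tested genes of glycosaminoglycan chain synthesis, which build the sugar chains of proteoglycans, 8 were on the higher side and 1 on the lower, with a median of 0.10. Chpf2, a chondroitin-polymerising factor, read 629 and 617 against 847 and 829.9, a fold change of 0.38 (SE 0.0719, limma adjusted p = 0.110). Dsel, which is related to the dermatan sulfate epimerase, read 622 and 679 against 500.3 and 465, a fold change of -0.47 (SE 0.0955, adjusted p = 0.120). In each case both siTIMP1 arrays lay on the same side of both siControl arrays.

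Of the tested laminin chains and other basement membrane components, none was on the lower side at that p, and the smallest p belonged to Dag1. This gene, which encodes the laminin receptor dystroglycan, read 1859 and 1921 against 2830 and 3127, a fold change of 0.61 (SE 0.0784, limma adjusted p = 0.0584). Both siTIMP1 arrays lay above both siControl arrays. Of 10 tested cell-surface proteoglycans 1 was higher, Gpc4 (0.34), and 1 lower, Tgfbr3. Tgfbr3 encodes betaglycan, a TGF-beta co-receptor, and read 599.9 and 441 against 242 and 239.6, a fold change of -1.14 (SE 0.153, limma adjusted p = 0.0642).

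Of 14 tested entries for hyaluronan turnover and binding, with Cemip2 counted under both its symbols, 3 were on the higher side and none on the lower. These included Bcan, a hyaluronan-binding proteoglycan gene best known from brain (0.48), and Tnfaip6, whose product cross-links hyaluronan (0.44). Of 16 other matricellular and secreted glycoproteins 4 were higher, with the smallest p for Fstl1 (0.31) and Igfbp7 (0.185). Of 10 other microfibril genes none was on either side at that p, and the smallest p belonged to Adamtsl4 (-0.51) and Ltbp4 (-0.12). Of 3 tested other small leucine-rich proteoglycans, Tsku was lower (-0.40) and Aspn (0.45) had overlapping groups.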

How the data were processed

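Total RNA of 4 NIH3T3 samples, grouped by title, was read on Agilent 1-colour arrays (Cy3). The submitters' processing notes name Agilent Feature Extraction 11.5.1.1, whose spot intensity output was deposited. Per the file headers, processed intensity has had background subtracted and spatial trends removed array by array. The authors' value table holds log2 values, which equal log2 processed signal minus 1 constant per array (6.90 to 6.96) with column medians of -3.94, -3.86, -3.99 and -3.91. Its scale, centring and direction are therefore known. Probe coordinates are mm9, per the file headers, and exon or UTR position was not used here.

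From the scanner files, log2 processed signal minus each array's 75th percentile was computed without control spots. Outlier spots (136 to 250 per array) counted in the percentile but were left out when the spots of a probe were averaged. No spot was saturated. Tested probes (26015 of 56605) exceeded background clearly in both replicates of a group. The test was limma 3.58.1 under R 4.3.3 (lmFit, eBayes with a trend), and p-values were adjusted over all of them (Benjamini-Hochberg, threshold 0.05). The number of arrays limits the precision. For a bound, the mean of the group with signal is set against the mean floor of the other group. The floor of an array is its lowest value well above background, or the probe's own value where that is higher.

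The members and lists were chosen with earlier results of these data known. Values on each array are given for members at an unadjusted p under 0.05 with groups apart, the 2 largest fold changes of each class, members whose probes differ by over 0.5 and members at background in 1 group. Others were added after their values were seen. In each related list, up to 2 genes of smallest p are named, apart from some items that are not reported here.

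The alternatives were normexp background correction (offset 50), quantile normalization, the percentile over detected spots, no filter, a filter on all 4 arrays, robust eBayes, eBayes with no trend, all outlier spots, averaging the probes of a gene, the authors' value table and leaving out each array. Reading each gene by its most 3′ or most 5′ mRNA probe was added after seeing the data. Figures were drawn with matplotlib 3.10.9.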

Additional observations from a re-analysis of the deposited data

How the results depend on the processing

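Thbs2 was the member called (1 gene, lower, with 2 member probes) under quantile normalization, the percentile over detected spots, no filter and robust eBayes. Without a mean-variance trend 6 members were at an unadjusted p under 0.05 with groups apart and 0 member probes were called, as limma then called 0 of all genes. With each gene's most 5′ mRNA probe 1 member, Tnc, was called lower. Class medians moved by over 1 SD between replicates without a filter (aggregating proteoglycans and hyaluronan synthases 0.0091, matricellular 0.0125), with probes averaged per gene (adhesive -0.064, matricellular -0.18, all members -0.064) and with the most 5′ probe (adhesive -0.032, basement membrane -0.31, matricellular -0.43). Leaving out 1 array gave 0 to 6 members called, 0 to 4 higher and 0 to 2 lower, 4 to 15 at the unadjusted p, and 0 to 14 probes called, while the share of all genes called ran from 0% to 6.15%. The medians then ran from -0.0058 to 0.19 for adhesive, -0.18 to -0.0008 for aggregating, -0.12 to 0.16 for basement membrane, 0.0025 to 0.19 for elastic fibre and -0.16 to 0.053 for small leucine-rich genes, and from -0.085 to 0.074 over all members. With 1 array left in a group, limma assumes that it varies like the others. Among 603 member values under alternatives, none that was called changed sign. The upstream Tnc probe, with 13 of these values, was the only one called in the main fit, so no other value could lose a call. Uncalled members did change sign between alternatives, among them Fmod (-0.07 to 1.70) and Hspg2 (-0.53 to 0.25).

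No paired analysis was possible because the labels give no number common to both groups. Replicates 1 and 2 are numbered here by sample order within each group, so equal numbers do not mark a pair. With 1 slide, no slide block was fitted. With 2 arrays a group, moderate differences in dim genes, such as Mfap2, Lama5 and Nid2, have wide intervals. The Fmod interval is also wide, with siControl arrays 1.77 apart on the log2 scale. The 7 untested members had no test while the filter on dim probes was kept. An uncalled member is not shown to be unaffected.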
